A study of Mus musculus with 8 samples.

Results

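Zonation markers are genes that hepatocytes switch on or off according to where they sit between the portal and the central vein of a liver lobule. The set examined here held 10 genes, chosen by exact gene symbol: the pericentral Glul, Oat, Axin2, Lgr5, Rgn and Cyp1a2, and the periportal Cyp2f2, Hal, Sds and Gls2. Of these 10, 8 had a probe set with that symbol, and the 8 were covered by 11 probe sets. In all, 17316 genes had a probe set with a single symbol and a usable value on every array. Sds, which deaminates serine, and Gls2, the liver glutaminase, were not analysed here. All 6 pericentral genes were measured, but only 2 of the 4 periportal genes. Where a gene had more than 1 probe set, the one with the highest mean intensity led.

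Primary hepatocytes came from wild-type mice (WT) and from transglutaminase 2 knockout mice (KO), both with the label C57BL6/129SVJ as strain. Cells of each genotype were kept for 15 h with 0 or 100 mM ethanol, which gave untreated WT, ethanol WT, untreated KO and ethanol KO groups of 2 arrays each, lettered A and B. The study's title concerns the crosslinking of the transcription factor Sp1 by transglutaminase 2 in liver injury, and the comparisons below ask whether genotype or ethanol moved the zonation markers. Age, sex, the deleted part of Tgm2 and any separation of periportal from pericentral cells are not stated in the labels, so each array is read here as a mixture of zones. The labels do not say whether A and B came from separate animals or cultures, so the p-values reflect only how far these samples spread, and that spread may be technical. Both ethanol B arrays carry a treatment text that describes a control incubation, against the 100 mM of their titles and source names. They were grouped by title, and a result that rests on them is also given without them where that changes a call.

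Blood enters the lobule at the portal tract and leaves at the central vein, and oxygen and hormones fall along the way. Periportal hepatocytes favour gluconeogenesis, urea synthesis and amino acid breakdown, whereas pericentral cells favour glutamine synthesis and cytochrome P450 metabolism. Wnt ligands from endothelial cells of the central vein keep β-catenin active in the nearest hepatocytes, where it acts through TCF/LEF factors on genes such as Glul, Axin2 and Lgr5. Cultured hepatocytes lose these gradients, so a marker's level in culture need not report a cell's former position.

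Promoter sequence was available for 6 of the 10 markers, from RefSeq on GRCm38.p6. The 250 bases before the start are shown for the markers that differed between groups and were available (Oat, Cyp1a2, Cyp2f2), for Glul as the classical pericentral gene, and for Hal. Capitals mark matches to the Sp1 GC box (GGGCGG) or to the TCF/LEF core (CTTTGAT or CTTTGTT), both searched on both strands.
Glul, chr1:153899679-153899928, plus strand: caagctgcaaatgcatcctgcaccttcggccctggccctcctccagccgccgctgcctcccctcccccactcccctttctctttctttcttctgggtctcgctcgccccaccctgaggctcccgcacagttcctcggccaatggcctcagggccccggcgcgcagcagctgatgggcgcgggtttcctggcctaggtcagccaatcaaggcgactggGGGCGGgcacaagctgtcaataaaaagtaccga
Oat, chr7:132576399-132576648, minus strand: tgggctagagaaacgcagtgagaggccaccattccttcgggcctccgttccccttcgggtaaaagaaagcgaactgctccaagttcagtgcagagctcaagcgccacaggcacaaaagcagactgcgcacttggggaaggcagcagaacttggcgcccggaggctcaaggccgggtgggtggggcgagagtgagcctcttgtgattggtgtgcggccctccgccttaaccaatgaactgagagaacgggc
Cyp1a2, chr9:57683656-57683905, minus strand: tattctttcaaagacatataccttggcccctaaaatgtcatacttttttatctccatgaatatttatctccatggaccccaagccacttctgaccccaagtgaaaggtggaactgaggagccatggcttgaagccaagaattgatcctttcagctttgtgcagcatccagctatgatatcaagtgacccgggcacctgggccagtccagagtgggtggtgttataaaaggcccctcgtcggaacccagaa
Cyp2f2, chr7:27119705-27119954, plus strand: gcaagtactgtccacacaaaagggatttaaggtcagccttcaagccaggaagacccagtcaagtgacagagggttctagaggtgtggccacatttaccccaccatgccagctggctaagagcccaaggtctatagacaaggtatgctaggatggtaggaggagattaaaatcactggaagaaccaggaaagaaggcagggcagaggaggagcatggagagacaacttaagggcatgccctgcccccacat
Hal, chr10:93488518-93488767, plus strand: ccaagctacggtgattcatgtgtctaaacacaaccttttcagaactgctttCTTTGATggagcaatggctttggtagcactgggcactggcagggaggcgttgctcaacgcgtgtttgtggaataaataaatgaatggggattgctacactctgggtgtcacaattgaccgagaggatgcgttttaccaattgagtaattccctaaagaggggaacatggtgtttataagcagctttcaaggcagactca

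The TCF/LEF core occurred in 1 of the 6 promoters, that of Hal, 199 to 193 bases before the start, and in 8.06% of all 32851 promoters of the table. The GC box occurred in 2 of the 6, that of Glul at 33 to 28 bases before the start and that of Axin2 at 58 to 53 and at 20 to 15 bases before it. It was present in 32.7% of all promoters. The Axin2 window, chr11:108920099-108920348 on the plus strand, lay within the gene's bounds of 108917828 to 108950783. Its positions therefore count from a start inside those bounds. All these matches describe the letters in the 250-base windows only.

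The labels of genotype held: Tgm2, encoding transglutaminase 2, read 16700 to 16800 on the WT arrays and 368 to 704 on the KO arrays, as quantile-normalised intensity. Arrays of 1 group correlated at 0.967 to 0.987. The arrays were deposited at unequal brightness. Trimmed means were 113.3 and 117 for untreated KO and 117.5 for ethanol KO A, against 228 to 341.5 for the other 5. Ethanol KO B was the brightest, at 341.5. Every comparison that includes KO arrays, that of ethanol within KO among them, therefore depends on how arrays are brought to a common level. Summed intensity of 9 measured hepatocyte markers was 105000 to 111400 over the 8 arrays. Hnf4a, a hepatocyte transcription factor among them, read 1150 and 1200 in untreated WT against 467 and 430 in untreated KO. Summed Kupffer cell markers (10 of 10 measured) ranged from 4881 to 5221 in WT without and 6786 to 6966 in WT with ethanol, and from 5961 to 6030 in KO without and 8050 to 8577 in KO with ethanol. Summed cholangiocyte markers (8 of 10 measured) were 2808 to 2938, 1702 to 1857, 2874 to 2996 and 1885 to 2249 in the same order. Those of stellate cell and fibroblast markers (10 of 10 measured) were 320.4 to 399, 278.2 to 440.3, 544.6 to 586.1 and 457.6 to 730.3, and those of endothelial markers (10 of 10 measured) lay between 630.1 and 784.2 over all arrays. Most of the Kupffer cell sum was Cd14, at 3830 and 4080, 5570 and 5760, 4180 and 4300, and 6100 and 5850 in that order. Cldn4 was the largest part of the cholangiocyte sum, at 2320 and 2470, 1480 and 1380, 1730 and 1940, and 1240 and 1090. Over 9 Kupffer cell markers the median log2 difference with ethanol was -0.0044 in WT (4 above 0) and 0.28 in KO (7 above 0). Single markers were higher on the untreated KO than on the untreated WT arrays, among them the macrophage marker Cd68 (1260 and 1240 against 411 and 450), the stellate cell marker Dcn (322 and 347 against 124 and 89.5) and the cholangiocyte marker Sox9 (1050 and 951 against 286 and 323). The ethanol arrays differed in the same direction, with 1860 and 1630 in KO against 536 and 570 in WT for Cd68, 270 and 234 against 121 and 66.1 for Dcn, and 785 and 686 against 232 and 287 for Sox9. Other markers of these lists were lower on the untreated KO than on the untreated WT arrays. Among them were the macrophage markers Marco (65.3 and 52.7 against 127 and 135) and Csf1r (97.2 and 102 against 182 and 151). The cholangiocyte marker Cldn4 was lower too (1730 and 1940 against 2320 and 2470). Probe sets with a 0 on any array had been left out, so no listed marker could read 0. Of the measured markers, 4 of 10 stellate cell and fibroblast markers and 3 of 8 cholangiocyte markers were bright enough to be tested. The part of other cell types in the results below was not tested.

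**Figure D1:**
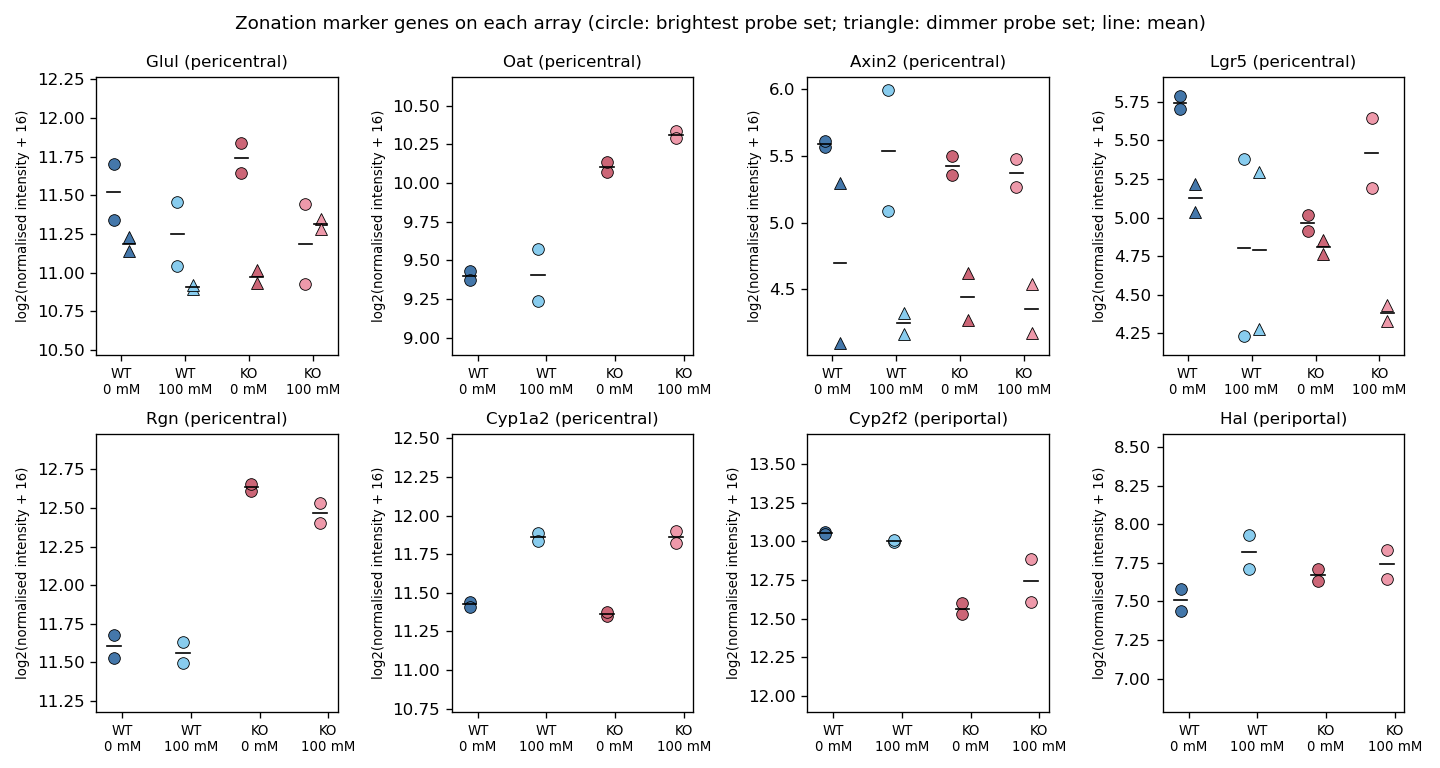
Quantile-normalised intensity of the 8 measured markers on each array, on a log2(intensity + 16) scale that differs between panels; circles are the brightest and triangles the dimmer probe set, and lines are means of 2 arrays. Rgn and Oat sit higher on all 4 KO arrays than on any WT array, Cyp1a2 sits higher on all 4 ethanol arrays than on any untreated array, and Cyp2f2 is lower on all 4 KO arrays.

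Untreated KO hepatocytes had more Rgn and Oat and less Cyp2f2 RNA than untreated WT cells. Rgn was 2.04-fold and Oat 1.63-fold higher, and Cyp2f2 was 1.40-fold lower. In limma's test across all 19814 probe sets, 2 of 7 tested markers were called higher and 1 lower, at an adjusted p under 0.05, where 32.3% of all tested probe sets were called, 15.3% higher and 16.9% lower. Against that background, 3 of 7 is no unusual share. All values below are quantile-normalised intensities, and differences are on the log2(intensity + 16) scale with the model's standard error (SE, n = 2 arrays per group). In bulk RNA, fewer cells of a kind and less RNA per cell cannot be told apart.

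Rgn encodes regucalcin, a calcium-binding lactonase that takes part in ascorbate synthesis in mice. WT arrays gave 2938 and 3263 without ethanol and 2872 and 3159 with it, whereas KO arrays gave 6241 and 6445 without and 5399 and 5911 with it. Every KO array was above every WT array, and the untreated KO arrays were the highest. Untreated KO exceeded untreated WT by 1.03 ± 0.08 (95% interval 0.85 to 1.21, adjusted p = 2.69e-05). With ethanol the genotypes differed by 0.90 ± 0.08, or 1.87-fold (adjusted p = 5.73e-05). Rgn was called in both contrasts under all 20 alternative settings, with differences of 0.955 to 1.32 and 0.825 to 0.972. Before any scaling, its deposited intensities overlapped between untreated WT (2987 and 4539) and untreated KO (3830 and 4216).

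Oat encodes ornithine aminotransferase, the mitochondrial enzyme that links ornithine with glutamate. On WT arrays it read 673.4 and 646.7 without ethanol and 745.3 and 586.8 with it, and on KO arrays 1063 and 1107 without and 1275 and 1237 with it. The KO arrays lay above all WT arrays here too, with ethanol KO the highest group. The difference was 0.70 ± 0.11 untreated (adjusted p = 0.00134) and 0.91 ± 0.11 with ethanol, or 1.88-fold (adjusted p = 0.000367). The untreated difference was called under all 20 alternatives and the one with ethanol under 19. It missed the threshold with both ethanol B arrays counted as untreated (0.76, adjusted p = 0.0596). On the deposited scale the order was the opposite, with 534.5 and 581.4 in untreated KO below 688.6 and 917 in untreated WT, so the call rests on scaling. Both scalings, quantile and trimmed mean, placed untreated KO above untreated WT (0.70 and 0.68).

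Cyp2f2 is a periportal cytochrome P450 known for the metabolism of naphthalene. Its WT values were 8514 and 8454 without ethanol and 8151 and 8207 with it, and its KO values were 5890 and 6193 without and 7554 and 6214 with it. The WT arrays did not overlap with the KO arrays, but the ethanol KO arrays stood apart from each other. Untreated KO was lower by 0.49 ± 0.09 on the log2 scale (difference -0.49, adjusted p = 0.00237), a call that held in 19 of 20 alternatives. Trimmed-mean scaling ended it (-0.16, adjusted p = 0.385), with the sign kept. With ethanol the difference was -0.25 ± 0.09 (adjusted p = 0.0533). It was called over the top 30% of probe sets (adjusted p = 0.0421) and with the spike-in ratio as a term (adjusted p = 0.0386). Without ethanol KO A it was -0.40 (adjusted p = 0.000773), and without ethanol KO B it was -0.11 (adjusted p = 0.106).

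**Figure D2:**
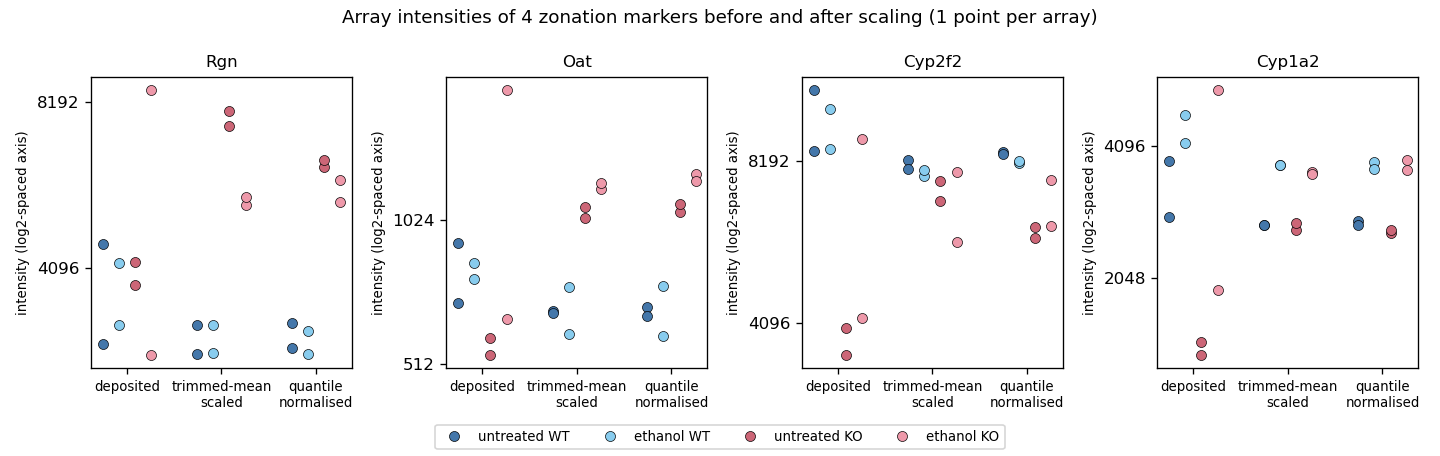
Intensity of Rgn, Oat, Cyp2f2 and Cyp1a2 on each of the 8 arrays as deposited, after trimmed-mean scaling and after quantile normalisation, on log2-spaced axes; each point is 1 array. Both scalings separate KO from WT for Rgn and Oat, whereas for Cyp2f2 an ethanol KO array falls among the WT arrays after trimmed-mean scaling.

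Hal encodes histidine ammonia-lyase, which starts histidine breakdown. Without ethanol its values were 157.1 and 175.1 in WT and 182.9 and 193 in KO, and with ethanol they were 193.8 and 227.7 in WT and 184.6 and 212.3 in KO. Untreated WT was the lowest group, ethanol WT lay above untreated KO, and ethanol KO overlapped with both. The genotype differences were 0.16 ± 0.15 untreated (95% interval -0.18 to 0.51, adjusted p = 0.458) and -0.08 ± 0.15 with ethanol (adjusted p = 0.743). Hal was called in no contrast.

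Of the ethanol arrays, 2 of 7 markers were higher in KO than in WT and none was lower, against 29.1% of all probe sets called, 14% higher and 15.1% lower. The 2 were again Rgn and Oat. At an unadjusted p under 0.05 the count was 3, these 2 and Cyp2f2, which was lower in KO. This contrast shares no array with the untreated one. The 3′/5′ signal ratio of Pcx is a measure of RNA integrity on these arrays. In this contrast it was 26.7 and 44.5 on the WT arrays and 4.91 and 5.45 on the KO arrays. The same ratio of Actb was 1.62 and 1.48 on the WT and 1.23 and 1.15 on the KO arrays. That of Gapdh was 0.977 and 0.928 against 0.826 and 0.839. The part of these ratios in the result was not tested. The median over all tested probe sets here was -0.047 after quantile normalisation and 0.065 after trimmed-mean scaling, a shift of 0.11.

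**Figure D3:**
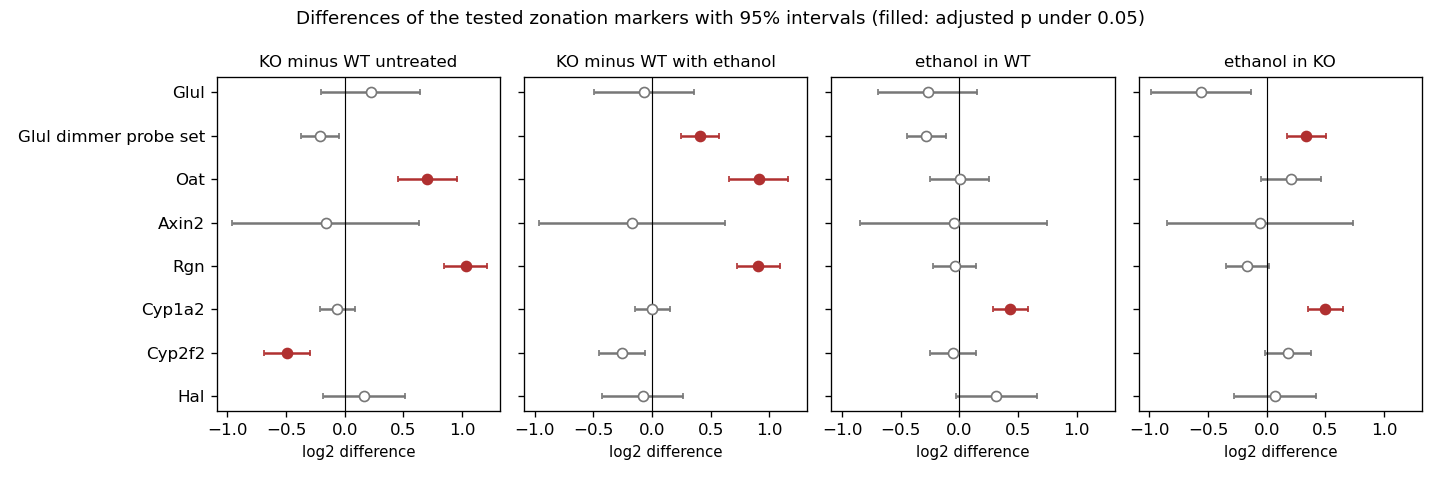
Log2 differences of the 8 tested marker probe sets (points) with 95% intervals from limma (bars) in 4 contrasts; filled red points have an adjusted p under 0.05. Rgn and Oat are filled in both genotype contrasts, Cyp1a2 in both ethanol contrasts, and the dimmer Glul probe set in 2 contrasts in which the brightest is not.

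Ethanol raised 1 marker, Cyp1a2, in both genotypes. Cyp1a2 is a cytochrome P450 that oxidises caffeine and aromatic amines and is induced through the aryl hydrocarbon receptor. In WT cells it read 2767 and 2701 untreated and 3765 and 3635 with ethanol. In KO cells it read 2598 and 2637 untreated and 3808 and 3609 with ethanol. The ethanol arrays were above all untreated arrays in both genotypes. The rise was 0.43 ± 0.07 in WT, or 1.35-fold (adjusted p = 0.00554), and 0.50 ± 0.07 in KO, or 1.41-fold (adjusted p = 0.00129). In WT 1 of 7 markers was called where 5.58% of all probe sets were (1.67% higher and 3.91% lower), and in KO 1 of 7 where 22.2% were (11.4% higher and 10.8% lower). The Pcx 3′/5′ ratio differed with ethanol as well, from 10 and 16.8 to 26.7 and 44.5 in WT and from 10.6 and 8.69 to 4.91 and 5.45 in KO. That of Actb went from 1.33 and 1.24 to 1.62 and 1.48 in WT and from 1.25 and 1.24 to 1.23 and 1.15 in KO. For Gapdh it went from 0.831 and 0.821 to 0.977 and 0.928 in WT and from 0.78 and 0.771 to 0.826 and 0.839 in KO. The part of these ratios in the ethanol contrasts and in the interaction was not tested.

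The Cyp1a2 rises were as large within each set of arrays with a like spike-in ratio, taken as bioC over bioB. In WT they were 0.44 on the arrays with a ratio under 2 and 0.43 on those over 2, and in KO 0.46 on those over 2, each from 1 or 2 arrays a side. The call in WT held in 14 of 20 alternatives. It was lost without untreated WT A (0.45, adjusted p = 0.0508), untreated WT B (0.42, adjusted p = 0.071) or ethanol WT A (0.41, adjusted p = 0.0692), and with a constant variance prior (adjusted p = 0.093). With both ethanol B arrays counted as untreated, neither rise was called (0.32 in WT and 0.39 in KO, adjusted p = 0.295 in KO). The interaction, which is the ethanol effect in KO minus that in WT, was 0.07 with a 95% interval of -0.14 to 0.27 (adjusted p = 0.718). Genotype differences of Cyp1a2 were -0.06 untreated (95% interval -0.21 to 0.08) and 0.00 with ethanol (95% interval -0.14 to 0.15).

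Ethanol differences of the other markers did not pass the test on the brightest probe set. In WT they were 0.00 for Oat, -0.04 for Rgn, -0.05 for Cyp2f2 and 0.31 for Hal. In KO they were 0.21 for Oat, -0.17 for Rgn, 0.18 for Cyp2f2 and 0.07 for Hal. In KO, Rgn was called lower by trimmed-mean scaling (-0.50, adjusted p = 0.00697), and Cyp2f2 was called higher without ethanol KO B (0.32, adjusted p = 0.00204). With both ethanol B arrays left out, Rgn (-0.23, adjusted p = 0.0403) and Cyp2f2 (0.32, adjusted p = 0.003) were called in KO. No marker's brightest probe set was called for the interaction in limma, where 5.35% of all probe sets were (3.57% with a higher and 1.78% with a lower value in KO), and 0 of 7 had an unadjusted p under 0.05. The 95% intervals of the interaction were -0.04 to 0.51 for Cyp2f2 and -0.15 to 0.56 for Oat. That of Cyp2f2 was called without ethanol KO B (0.38, adjusted p = 0.00675).

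Glul encodes glutamine synthetase, which in the liver is normally confined to the hepatocytes next to the central vein. Its brightest probe set read 3313 and 2582 in WT cells without ethanol, 2794 and 2099 in WT cells with it, 3645 and 3191 in KO cells without it, and 1930 and 2768 in KO cells with it. Untreated KO lay above both ethanol groups, and the other pairs of groups overlapped. No difference of this probe set passed the test, the largest being -0.56 ± 0.19 for ethanol in KO (adjusted p = 0.0626). That difference was called without ethanol KO B (-0.82, adjusted p = 0.00919) and with trimmed-mean scaling of all arrays (-0.71, adjusted p = 0.0284). With both ethanol B arrays left out, the genotype difference with ethanol (-0.53, adjusted p = 0.044) and the interaction (-0.75, adjusted p = 0.042) were called too.

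The dimmer Glul probe set gave another order. WT cells gave 2243 and 2388 without ethanol and 1883 and 1920 with it, and KO cells 1939 and 2057 without and 2588 and 2471 with it. No pair of groups overlapped, with ethanol KO highest and ethanol WT lowest. Ethanol raised it in KO by 0.34 ± 0.07 (adjusted p = 0.0108), and KO exceeded WT with ethanol by 0.41 ± 0.07 (adjusted p = 0.00281). The rise in KO was not called without untreated KO A (0.30, adjusted p = 0.0984). In WT the ethanol difference was -0.28 ± 0.07 (adjusted p = 0.0573), and without ethanol KO A or ethanol KO B it was called (adjusted p = 0.0223 and 0.0227). The untreated genotype difference was -0.21 ± 0.07 (adjusted p = 0.0512), and without either ethanol KO array it was called (adjusted p = 0.023). The probe sets thus disagreed in sign for ethanol in KO and for both genotype contrasts, and no direction is given for Glul there.

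Axin2 and Lgr5, the markers closest to the Wnt pathway itself, were near the lower end of the intensity scale. Axin2 is a scaffold of the β-catenin destruction complex that β-catenin induces in turn, and Lgr5 is a receptor for R-spondins, which prolong Wnt signalling. The brightest Axin2 probe set read 31.6 and 32.8 in WT without ethanol, 47.9 and 18.0 in WT with it, 29.2 and 25.1 in KO without it, and 28.5 and 22.6 in KO with it. All 4 groups overlapped except untreated WT with either KO group. Its mean of 29.4 was just above the filter, which kept probe sets with a mean intensity of 26.2 or more, and its genotype difference without ethanol was -0.16 ± 0.35 (95% interval -0.96 to 0.63). The dimmer Axin2 probe set, at 1.16 to 23.4, was below the filter.

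Lgr5 was not tested. Its brightest probe set, with a mean of 23.6, read 39.1 and 36.1 in WT without ethanol, 25.5 and 2.80 in WT with it, 14.2 and 16.3 in KO without it, and 34.1 and 20.6 in KO with it. Untreated KO was below untreated WT, and the ethanol WT arrays were far apart. With no filter the untreated difference was -0.78 (adjusted p = 0.291). The dimmer Lgr5 probe set read 3.42 to 23.3.

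Among the brightest probe sets, the orders of the group means differed from marker to marker. From high to low, Rgn ran from untreated KO through ethanol KO and untreated WT to ethanol WT, with overlap only between the WT groups. Oat ran from ethanol KO through untreated KO and ethanol WT to untreated WT, again with overlap only between the WT groups. Cyp1a2 ran from ethanol KO and ethanol WT, which overlapped, through untreated WT to untreated KO. Cyp2f2 ran from untreated WT through ethanol WT and ethanol KO to untreated KO, with no overlap between neighbours.

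Each genotype difference was also read within the spike-in sets, which were inferred from the arrays and are not named in the labels. With ethanol, Rgn gave 0.91 on the arrays with a ratio under 2 and 0.90 on those over 2. Oat gave 0.76 and 1.06, and Cyp2f2 -0.11 and -0.40. Untreated, where 3 arrays had a ratio over 2, Rgn gave 0.955, Oat 0.73 and Cyp2f2 -0.48.

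Other zonated genes were listed to set beside the markers. Of 20 other pericentral genes 14 were tested, and in untreated KO 4 were higher than in WT and none lower in limma. An unadjusted p under 0.05 held for 7. Those of the 7 that were not called went both ways: Gulo (-0.27) and Cyp2c29 (-0.18) were lower and Nr1i3 (0.77) was higher. Of all tested probe sets, 15.3% were called higher and 16.9% lower in this contrast. Without ethanol KO A, and likewise without ethanol KO B, 2 were called lower. The main median difference was 0.29, against -0.035 for all tested probe sets. Ces1d, a carboxylesterase that hydrolyses stored triacylglycerol, was higher by 1.93 ± 0.08 on all 3 of its probe sets (adjusted p = 3.15e-07). Lect2, a secreted protein that β-catenin induces in the liver, was higher by 0.88 ± 0.13. Cyp2e1, the cytochrome P450 that oxidises ethanol, was higher by 0.60 ± 0.08. Aldh1a1, a retinaldehyde dehydrogenase, was higher by 0.33 ± 0.07, a difference not called without untreated WT A (0.29, adjusted p = 0.0505).

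The untreated comparison of 21 other periportal genes, 19 of them tested, gave 3 higher and 11 lower in KO, with a median of -0.55, where 15.3% of all probe sets were called higher and 16.9% lower. Those lower by the smallest adjusted p were Fbp1, a gluconeogenic phosphatase (-0.77 ± 0.06), Apof, an apolipoprotein (-0.74 ± 0.06), and Asl, a urea cycle lyase (-0.79 ± 0.07). The 3 higher were Slc7a2, a transporter of arginine and ornithine (2.77 ± 0.16), Pck1, which encodes the cytosolic phosphoenolpyruvate carboxykinase of gluconeogenesis (1.90 ± 0.20), and Otc of the urea cycle (0.36 ± 0.06). Pck1 and Otc were named after their values were seen. Genes of 1 pathway thus differed in opposite directions, as Asl and Otc did in the urea cycle and Fbp1 and Pck1 in gluconeogenesis. With trimmed-mean scaling the medians were 0.36 for the pericentral and -0.41 for the periportal list.

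With ethanol the KO-minus-WT medians were 0.097 for the pericentral and -0.33 for the periportal list, against -0.047 for all probe sets. With trimmed-mean scaling they were 0.22, -0.36 and 0.065. In this contrast 14% of all probe sets were called higher and 15.1% lower. Of the pericentral genes 3 were higher and none lower, with an unadjusted p under 0.05 for 4. The 3 were Ces1d by 1.50 ± 0.08 (called on 2 of 3 probe sets), Lect2 by 1.03 ± 0.13 and Cyp2e1 by 0.64 ± 0.08. Without ethanol KO B, 3 pericentral genes were called lower. Of the periportal genes 3 were higher and 10 lower. Among the lower were Apof (-0.68 ± 0.06), Cps1, the entry enzyme of the urea cycle (-0.64 ± 0.06), and Gldc, which cleaves glycine (-1.04 ± 0.12). Slc7a2 (1.48 ± 0.16) and, named after their values were seen, Pck1 (1.17 ± 0.20) and Pigr, the receptor that carries IgA into bile (0.40 ± 0.12), were higher. Pigr was not called without ethanol WT B (0.26, adjusted p = 0.226), ethanol KO A (0.27, adjusted p = 0.138), untreated KO A (adjusted p = 0.0553) or untreated KO B (adjusted p = 0.0555).

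**Figure D4:**
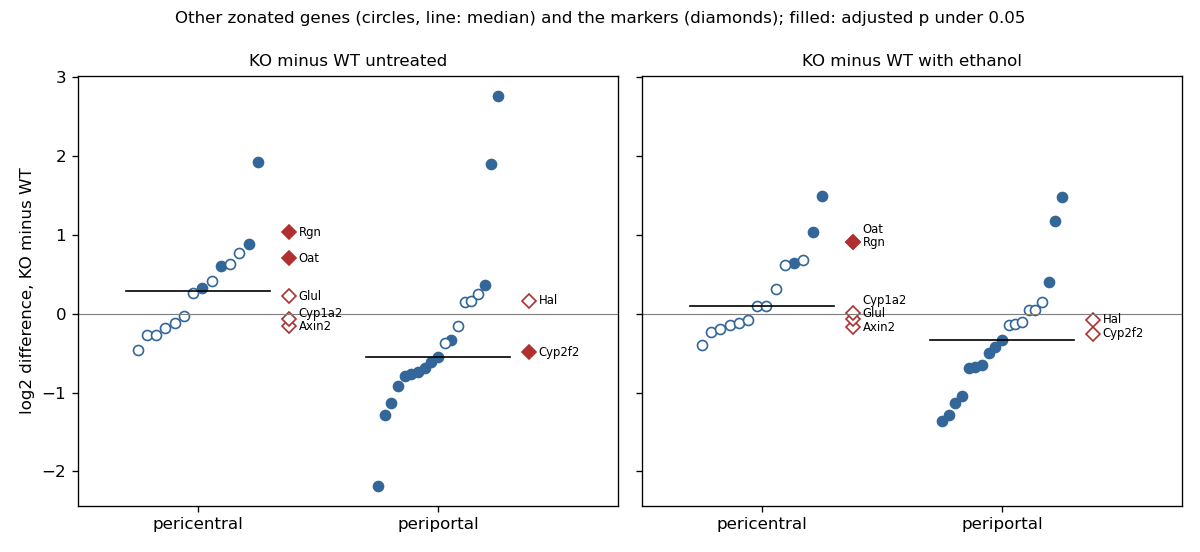
Log2 difference of KO minus WT for each tested gene of the other pericentral and periportal lists (circles, with the median as a line) and for the markers (diamonds), without and with ethanol; filled symbols have an adjusted p under 0.05. The untreated medians are 0.29 for pericentral and -0.55 for periportal genes, and both lists hold genes above and below 0.

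Ethanol left the other pericentral genes largely without calls. In WT limma called 0 of 14, with 1 at an unadjusted p under 0.05, and in KO it called 1, Gulo, the last enzyme of ascorbate synthesis in mice (0.47 ± 0.10, adjusted p = 0.0093). In KO 3 had an unadjusted p under 0.05, with Ces1d (-0.24, limma adjusted p = 0.0519) and Aldh1a1 (-0.15) lower. A dimmer probe set of Ces1d, 1 of 3 tested, was called lower. Gulo was not called without untreated KO A (0.44) or untreated KO B (0.50), or with both ethanol B arrays counted as untreated (0.40). In WT 2 of 19 periportal genes rose (1.67% of all probe sets were called higher there), G6pc, which releases glucose (1.41 ± 0.21), and Agxt, which detoxifies glyoxylate (0.42 ± 0.09). G6pc in WT was not called without untreated WT B (1.34) or ethanol WT A (1.37), or with both ethanol B arrays counted as untreated (0.98). Agxt in WT was not called when any 1 of the WT arrays or of the untreated KO arrays was left out (0.40 to 0.44). It was also not called with both ethanol B arrays left out (0.415) or counted as untreated (0.27).

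In KO ethanol raised 8 and lowered 2 of the 19 periportal genes, with a median of 0.22 against -0.0054 for all probe sets, of which 11.4% were called higher and 10.8% lower. With trimmed-mean scaling the medians were 0.099 for the list and 0.076 for all probe sets. G6pc rose by 2.23 ± 0.21, Agxt by 0.61 ± 0.09 and Fbp1 by 0.41 ± 0.06, while Slc7a2 was lower by 1.16 ± 0.16 (difference -1.16). Trimmed-mean scaling ended the call of Fbp1 (0.13, adjusted p = 0.362). With both ethanol B arrays counted as untreated, G6pc gave 1.84, Agxt 0.46, Fbp1 0.24 and Slc7a2 -0.53, and none of these was called. This contrast shares the untreated KO arrays with the untreated genotype contrast, in which the same genes gave -2.19 (G6pc), -0.69 (Agxt), -0.77 (Fbp1) and 2.77 (Slc7a2). The interaction was called for Slc7a2 (-1.28 ± 0.23), Asl (0.45 ± 0.11) and Fbp1 (0.35 ± 0.09), at adjusted p of 0.0153, 0.0399 and 0.0487. The call of Slc7a2 was lost without untreated WT B (-1.07, adjusted p = 0.0544), either ethanol WT array or either untreated KO array (-1.22 to -1.35). The calls of Asl (0.39 to 0.52) and Fbp1 (0.31 to 0.38) were lost without any 1 of the WT or untreated KO arrays. They were also lost with trimmed-mean scaling, at 0.38 for Asl (adjusted p = 0.107) and 0.053 for Fbp1 (adjusted p = 0.848). With both ethanol B arrays counted as untreated, the interaction was -0.705 for Slc7a2, 0.356 for Asl and 0.217 for Fbp1, and none was called.

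Of 41 Wnt and β-catenin pathway genes 40 were measured and 27 tested. The ligands Wnt2 and Wnt9b and the R-spondin Rspo3, which endothelial and stellate cells make in liver, had mean intensities of 4.15, 11.4 and 6.12, all below the filter. Ctnnb1, the gene of β-catenin, differed by -0.21 ± 0.10 between untreated genotypes (adjusted p = 0.136) and by 0.05 ± 0.10 with ethanol (adjusted p = 0.771) on its brightest probe set. Dimmer probe sets of Ctnnb1 were called with the sign of the brightest, 2 of 3 tested, for KO minus WT with ethanol, for ethanol in WT and for the interaction. Among the 27, untreated KO cells had 5 at a higher and 4 at a lower level than untreated WT cells, where 32.3% of all probe sets were called. The smallest adjusted p belonged to the corepressor Ctbp1 (-0.96 ± 0.12), the kinase Csnk1a1 (0.68 ± 0.09, on 2 of 4 probe sets), the kinase Gsk3b (-0.78 ± 0.11, on 1 of 4) and the β-catenin coactivator Pygo2 (-1.14 ± 0.17). The median was -0.033 and turned to 0.034 with trimmed-mean scaling. With ethanol 2 were higher and 4 lower in KO, where 29.1% of all probe sets were called. Ethanol itself raised 1 in WT, where 5.58% were called, and in KO it raised 4 and lowered 2, where 22.2% were.

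Glutamine and glutamate genes bear on Glul, Oat and Gls2. Of 21 such genes 16 were tested. In untreated KO 2 were higher and 8 lower, with a median of -0.28, where 32.3% of all probe sets were called. Asns, which makes asparagine at the cost of glutamine, was lower by 1.20 ± 0.09 (difference -1.20), and Slc38a3, a glutamine transporter of hepatocytes, by 0.63 ± 0.08 (difference -0.63, on 1 of 2 probe sets). Gclc, the first enzyme of glutathione synthesis, gave -0.91 ± 0.11, whereas the amino acid transporter Slc38a2 was higher by 1.07 ± 0.09 (on 2 of 3 probe sets). In KO ethanol raised 9 of the 16 and lowered none in limma, where 22.2% of all probe sets were called. An unadjusted p under 0.05 held for 10, these 9 and Glud1, the glutamate dehydrogenase, which was lower (-0.14). The rises were led by Slc38a3 (1.02 ± 0.08, on 1 of 2 probe sets) and the proline oxidase Prodh (0.68 ± 0.10). Next were the aminotransferase Gpt (0.67 ± 0.10, on 1 of 2 probe sets) and Aldh4a1, which forms glutamate from the product of proline oxidation (0.74 ± 0.12). This contrast shares the untreated KO arrays with the untreated genotype contrast. In the latter the same genes gave -0.63 (Slc38a3), -0.73 (Prodh), -0.32 (Gpt) and -0.25 (Aldh4a1). In WT an unadjusted p under 0.05 held for 5 genes, with Glud1 and Got1 (-0.36) lower and Prodh, Nags and Slc38a3 higher. Ethanol raised none there in limma and lowered 1, Glud1 (-0.32 ± 0.06, adjusted p = 0.0159), where 5.58% of all probe sets were called. That call was lost when any 1 of the WT or untreated KO arrays was left out. It was also lost with both ethanol B arrays counted as untreated (-0.225). With ethanol 6 genes were higher and 5 lower in KO than in WT, where 29.1% of all probe sets were called, led by the aspartate aminotransferase Got1 (1.34 ± 0.11) and Asns (-0.76 ± 0.09). With both ethanol B arrays counted as untreated, the rises in KO were 0.76 for Slc38a3, 0.43 for Prodh, 0.54 for Gpt and 0.57 for Aldh4a1. None of these rises was called.

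Genes with the array pattern most like a marker's were found among 10741 tested genes, as the root mean square difference over the 8 arrays after centring each gene on its own log2 mean. Closest to Rgn were Selenbp1 (0.056), Ghr (0.071) and Prepl (0.081), whose untreated genotype differences were 1.06, 1.04 and 1.04. Closest to Oat were Rab11fip1 (0.085), Cldn2 (0.086) and Clasp2 (0.095). Closest to Lgr5 were Nppb (0.21), Dbn1 (0.25) and Sirt4 (0.25), at distances that were larger than those of Rgn and Oat. The arrays share groups and scaling, so a like pattern describes these 8 arrays only.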

How the data were processed

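Each array's deposited file holds a linear signal intensity for 45101 probe sets, 64 of them controls, a unit read from the values. How the authors made these intensities, with which software and scaling, is not given in the sources used here. Per the labels' protocols, RNeasy columns yielded total RNA, which was turned into biotinylated cRNA.

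On ethanol WT B, 5410 values were unusable (5403 zeros and 7 impossible values). Their probe sets were left out, none of them a marker's, which left 39627. Intensities were quantile normalised over the 8 arrays and transformed as log2(intensity + 16), which understates the change of dim genes. The 50% with the highest mean were tested (19814). The model, with 1 mean for each of 4 groups, was fitted over all arrays by limma 3.58.1 (R 4.3.3), letting the prior variance follow intensity (4 residual and 5.43 prior degrees of freedom). Benjamini-Hochberg adjustment ran within each of 5 contrasts, with calls at an adjusted p under 0.05. The fit was tested on simulated data.

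Gene symbols came from the annotation of the platform: a single symbol was given for 34958 probe sets, more than 1 for 932 and no symbol for 9211. RefSeq (GRCm38.p6) matched 34754 of the single symbols. From each gene list, up to 4 genes with the smallest adjusted p in a contrast were named. For the 3 markers with the widest range of group means, the 3 most similar genes were named. The markers and lists were chosen with earlier results of these data known. Alternatives were another offset or none, other filters, trimmed-mean scaling (2% left out at each end), no variance trend, only the groups compared, a block on the replicate letter, each array left out, both ethanol B arrays left out or counted as untreated, probe sets with a missing value kept, the spike-in ratio as a term, and another probe set of the gene. The number of arrays limits the precision.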

Additional observations from a re-analysis of the deposited data

Results flagged for a closer look

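The dimmer Glul probe set responded differently to ethanol in the genotypes: its interaction, the ethanol effect in KO minus that in WT, was 0.62 ± 0.10 (SE, limma adjusted p = 0.0116), with both KO arrays higher with ethanol and both WT arrays lower. The brightest Glul probe set gave -0.29 ± 0.27 (adjusted p = 0.562). The call held in 12 of 19 alternatives. Without untreated WT B, ethanol WT A, ethanol WT B, untreated KO A or untreated KO B the adjusted p was 0.0508 to 0.0755. Groups of 2 arrays were too small to look for single outlying samples.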

How the results depend on the processing

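Over all results and alternatives, 2401 of 2769 values kept their side of the threshold and direction (or, for counts, stayed within 1.5 times), 231 lost a call, 24 gained one, 68 counts or shares moved and 45 differences changed sign, all of the last among marker differences that had not been called.

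The count of called markers for ethanol in WT (1) was 0 with no variance trend, with both ethanol B arrays counted as untreated and with probe sets with a missing value kept, and 0 to 1 when 1 array was left out. For ethanol in KO (1) it was 3 with trimmed-mean scaling, 4 with both ethanol B arrays left out, 0 with these counted as untreated, 2 where any probe set sufficed, and 1 to 3 when 1 array was left out. For KO minus WT with ethanol (2) it was 1 with the ethanol B arrays as untreated. For the interaction (0) it was 2 with the ethanol B arrays left out, 1 where any probe set sufficed, and 0 to 1 when 1 array was left out. Pericentral genes called lower in untreated KO (0) numbered 1 over the top 30% of probe sets, 2 in a fit of only the groups compared, 2 with the ethanol B arrays left out, and 0 to 2 when 1 array was left out. Periportal genes called higher there (3) numbered 5 in a fit of only the groups compared and 5 with the ethanol B arrays left out. With ethanol, pericentral genes called lower (0) numbered 1 with the ethanol B arrays left out and 0 to 3 when 1 array was left out. With these arrays as untreated, periportal genes called higher (3) and lower (10) numbered 0 and 3.

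With trimmed-mean scaling these differences changed sign: Rgn for ethanol in WT (0.0012), Axin2 (0.19) and Cyp2f2 (-0.10) for ethanol in KO, Axin2 (0.16) and Cyp1a2 (-0.064) for KO minus WT with ethanol, and Axin2 (0.31), Cyp1a2 (-0.053) and Cyp2f2 (-0.048) for the interaction. With both ethanol B arrays left out, Axin2 turned to 0.41 in WT and 0.046 in KO, and Hal to -0.023 in KO. With these counted as untreated, Glul (0.093) and Axin2 (0.57) turned in WT, Axin2 (0.099) and Hal (-0.077) in KO, and Oat for the interaction (-0.059). With missing values kept, Oat turned in WT (-0.093), Glul (0.016) and Hal (0.045) for KO minus WT with ethanol, and Axin2 for the interaction (0.030). Axin2 turned to 0.040 for the interaction with no offset, and to 0.018 for untreated KO minus WT with the spike-in ratio as a term. The dimmer Glul probe set gave 0.34 for ethanol in KO, -0.21 and 0.41 for the genotype contrasts, and 0.62 for the interaction.

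Leaving out 1 array gave, for ethanol in WT, -0.17 to 0.17 for Oat, -0.50 to 0.41 for Axin2 and -0.12 to 0.036 for Rgn, and, for ethanol in KO, -0.16 to 0.046 for Axin2 and -0.023 to 0.16 for Hal. For KO minus WT with ethanol it gave -0.33 to 0.19 for Glul, -0.63 to 0.29 for Axin2, -0.035 to 0.042 for Cyp1a2 and -0.19 to 0.029 for Hal, and for the interaction -0.46 to 0.45 for Axin2. The causes were not tested.

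The letters A and B are not said to mark anything shared, and with 2 pairs per contrast the correlation of A-minus-B differences was 0.022 to 0.30. With the letter as a replicate block, 1, 1, 3, 2 and 0 markers were called for ethanol in WT, ethanol in KO, KO minus WT untreated, with ethanol, and the interaction. No call of a named gene was lost or gained. Axin2 and Lgr5, near or below the filter, carry too little signal to bound a change tightly.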
